A study of Mus musculus with 36 samples.

Results

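The transcripts of 9 chemokine and formyl peptide receptors, Ccr1, Ccr2, Ccr3, Ccr7, Ccrl2, Cx3cr1, Cxcr4, Fpr1 and Fpr2, were followed in mouse bone marrow-derived macrophages (BMDMs). They were picked by gene symbol from a count table of 54532 genes, and all 9 passed the filter on low counts in every comparison. The study asked how CCM (Core Circadian Modulator), a small molecule that binds the PASB domain of the clock transcription factor BMAL1, changes the macrophage transcriptome at rest and in inflammation. Marrow from female C57BL/6 mice aged 13 to 17 weeks was cultured with MCSF for 7 days, and the macrophages were then treated for 6 h with vehicle (DMSO), with 100 µM CCM, with 100 nM lipopolysaccharide (LPS, a bacterial cell wall component sensed by TLR4) in DMSO, or with LPS and CCM together. All cultures carried the floxed Bmal1 allele on both chromosomes (Bmal1 flox/flox). The Bmal1-KO cells (LysM-Cre;Bmal1 flox/flox) also carried Cre recombinase driven by the lysozyme M promoter, which is active in myeloid cells, and the wild-type (WT) cells had no Cre. No group carried Cre without the floxed allele, so the presence of Cre and the loss of Bmal1 cannot be told apart. Each WT group held 3 libraries and each KO group 6, 36 in all. The study calls its replicates biological. The labels do not tie a replicate number to a mouse, so whether libraries with the same number share a mouse is not known here.

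Chemokine receptors are G protein-coupled receptors that steer leukocytes along gradients of small secreted proteins. Formyl peptide receptors belong to the same broad class and sense N-formylated peptides, which bacteria and damaged mitochondria release. In monocytes and macrophages, inflammatory stimuli are known to remodel this repertoire, so that a cell's set of receptors reflects its state of activation as well as its origin. CCR1 and CCR3 bind CC chemokines such as CCL5, and CCR3 is best known from eosinophils. CCR2 binds CCL2 and guides monocytes out of the marrow. CCR7 binds CCL19 and CCL21 and directs activated dendritic cells to lymph nodes. CX3CR1 is the receptor for fractalkine, and CXCR4 binds CXCL12 and retains leukocytes in the marrow. CCRL2 is an atypical receptor that binds the chemoattractant chemerin without classical G protein signaling. FPR1 and FPR2 are the formyl peptide receptors of phagocytes, and FPR2 also binds serum amyloid A and annexin A1.

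Total counts per library ranged from 13469262 to 28288923, with a median of 19951421. Levels are given as CPM, the read count scaled to library size with TMM factors. Bmal1 itself (symbol Arntl) lay between 7.28 and 12.9 CPM in the 12 WT libraries. In the 24 KO libraries it lay between 2.13 and 10.7 CPM, so the genotypes overlapped on this gene-level count. The count also covers exons outside the floxed segment, and how completely Bmal1 was deleted was not tested. For the limited CCM effects it saw in KO cells, the paper names incomplete penetrance of the deletion or limited off-target actions as possible reasons. The 4 libraries of KO replicate 6 stood apart, with a median absolute log2 distance of 0.643 to 0.866 to the rest of their groups. The other 32 were at 0.0839 to 0.412. Of these, KO replicates 1 to 5 with LPS and CCM were at 0.223 to 0.412, and no other of the 32 exceeded 0.165. All 10 macrophage markers were detected, and their summed level was 12421 to 24495 CPM. With vehicle it was 17359 to 19740 CPM in WT and 12421 to 18622 CPM in KO. The lysozyme gene Lyz2 was the most abundant of these markers (5917 to 15062 CPM). Of the other cell types, the neutrophil list summed to 1172 to 1246 CPM in KO replicate 6 and to 459 to 1208 CPM elsewhere. Its most abundant members were S100a9 (135 to 500 CPM), S100a8 (97.8 to 424 CPM) and Ngp (97.0 to 275 CPM). Ly6g did not exceed 0.580 CPM, and the part of neutrophils in the receptor values was not tested. The fibroblast list summed to 296 to 1660 CPM, mainly through the collagens Col1a1 and Col1a2, with overlapping ranges in the 8 groups, while its markers Dcn and Pdgfra did not exceed 13.6 CPM. Neither the B cell, T cell, erythroid nor mast cell list exceeded 27.5 CPM in any library.

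The receptors lie in a few genomic neighbourhoods (mm10). Ccr1 (chr9:123962124-123968692, minus strand), Ccr3 (chr9:124021972-124031689, plus) and Ccr2 (chr9:124101950-124113557, plus) fall within 151434 bases of one another. Ccrl2 (chr9:111054486-111057519, minus) and Cx3cr1 (chr9:119901616-120069879, minus) lie elsewhere on the same chromosome. Fpr1 (chr17:17876471-17883940, minus) and Fpr2 (chr17:17887824-17893952, plus) stand head to head with a gap of 3883 bases. Ccr7 is at chr11:99144196-99155077 and Cxcr4 at chr1:128588199-128592293, both on the minus strand. The annotated span of Cx3cr1 overlaps 9 other genes, and whether counting used strand is not given in the sources used here. The span of Fpr2 overlaps that of Fpr3, which lies on the same strand. Fpr2 shares 31.5% of its 50-base exon words with other genes, among them Fpr3 and Fpr1, so its reads may have been divided or dropped in counting. The corresponding share was 1.91% for Ccr2, 1.06% for Cx3cr1, 0.0784% for Fpr1 and 0 for the remaining 5.

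The 250 bases before the annotated start (RefSeq, GRCm38.p6) are printed for the receptors with the largest responses to LPS and for Ccr3, whose window held the most motifs. Capitals mark matches, on either strand, to the loose kappa-B core, the interferon-response element (ISRE), the E-box CACGTG bound by BMAL1 with CLOCK, the AP-1 motif TGANTCA and the PU.1 motif GAGGAA. The windows are at chr9:111057519-111057768 (minus strand, Ccrl2), chr9:124021721-124021970 (plus, Ccr3), chr17:17887574-17887823 (plus, Fpr2), chr17:17883940-17884189 (minus, Fpr1) and chr1:128592300-128592549 (minus, Cxcr4).
Ccrl2: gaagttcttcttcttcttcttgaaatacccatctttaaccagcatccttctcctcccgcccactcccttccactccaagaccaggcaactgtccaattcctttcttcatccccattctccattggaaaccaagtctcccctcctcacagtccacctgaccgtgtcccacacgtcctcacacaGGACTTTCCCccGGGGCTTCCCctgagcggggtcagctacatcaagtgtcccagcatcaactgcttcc
Ccr3: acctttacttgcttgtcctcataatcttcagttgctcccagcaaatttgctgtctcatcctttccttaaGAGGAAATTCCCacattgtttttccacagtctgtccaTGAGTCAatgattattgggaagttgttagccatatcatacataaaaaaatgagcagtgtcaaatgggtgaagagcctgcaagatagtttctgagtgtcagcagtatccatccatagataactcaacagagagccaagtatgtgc
Fpr2: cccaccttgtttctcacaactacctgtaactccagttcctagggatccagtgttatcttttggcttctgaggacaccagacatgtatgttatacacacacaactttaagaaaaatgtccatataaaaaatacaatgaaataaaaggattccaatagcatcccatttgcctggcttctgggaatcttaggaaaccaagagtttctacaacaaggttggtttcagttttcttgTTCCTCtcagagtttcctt
Fpr1: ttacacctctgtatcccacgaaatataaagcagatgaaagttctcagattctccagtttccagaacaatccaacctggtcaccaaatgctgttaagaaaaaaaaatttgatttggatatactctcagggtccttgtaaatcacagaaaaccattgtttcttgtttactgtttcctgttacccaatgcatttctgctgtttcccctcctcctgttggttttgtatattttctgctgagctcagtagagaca
Cxcr4: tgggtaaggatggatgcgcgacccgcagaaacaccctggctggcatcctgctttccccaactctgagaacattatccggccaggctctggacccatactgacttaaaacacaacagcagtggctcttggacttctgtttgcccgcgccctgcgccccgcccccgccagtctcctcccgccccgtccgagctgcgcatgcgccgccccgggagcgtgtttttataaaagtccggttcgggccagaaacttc

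Over the full windows of 250 bases before and 50 after the start, 8 of the 9 receptors matched a RefSeq entry, and Ccr7 did not. Ccrl2 had 3 annotated starts and the other 7 genes 1 each, 10 windows in all. The printed Ccrl2 window carried 2 kappa-B cores, starting at -68 and -56 from the start, and its other 2 windows none. Ccr1 and Ccr3 also held a kappa-B core, as did 20.7% of all 32851 promoters of this length, and the strict kappa-B form occurred only in Ccr3 among the 8 genes, against 0.411% of all. In Ccr3 that match overlaps a PU.1 match, and an AP-1 match follows downstream. PU.1 matches were found in Ccr1, Ccr3 and Fpr2 (28.3% of all promoters) and AP-1 in Ccr3 (7.81%). The E-box CACGTG, present in 7.15% of all promoters, and the interferon-response element, in 3.44%, matched in none of the 10 windows, while the looser CANNTG was in 9 of 10 (7 of 8 genes) and in 72.3% of all. A match is a description of the letters and not a binding site.

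In resting WT macrophages the receptors spanned a wide range of levels, here compared per kilobase of exon. Cxcr4 stood first at 59.2 ± 4.75 CPM per kb (SD, n = 3), followed by Ccr1 at 30.1 ± 3.18 and the fractalkine receptor Cx3cr1 at 22.2 ± 3.0. Ccrl2 (6.76 ± 0.776) and Ccr2 (4.30 ± 0.488) were intermediate. Fpr2 (2.17 ± 0.202), Ccr3 (2.07 ± 0.755) and Fpr1 (2.05 ± 0.464) did not differ beyond their spread, and Ccr7 was lowest at 0.473 ± 0.0462. With LPS the order was led by Fpr2 (331 ± 6.58 CPM per kb), Fpr1 (245 ± 13.1) and Ccrl2 (171 ± 10.8), while Cxcr4 stood at 2.60 ± 0.436 and Ccr2 was last at 0.454 ± 0.0952. Ccr1 held 27.5 ± 5.80. In the KO the same 3 genes led with LPS, at 344 ± 28.9 for Fpr2, 277 ± 27.5 for Fpr1 and 166 ± 20.8 for Ccrl2. At rest, Cx3cr1 in the KO had a mean of 39.3 ± 13 CPM per kb (n = 6), above Ccr1 at 28.1 ± 6.87, an order the spread does not separate.

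**Figure D1:**
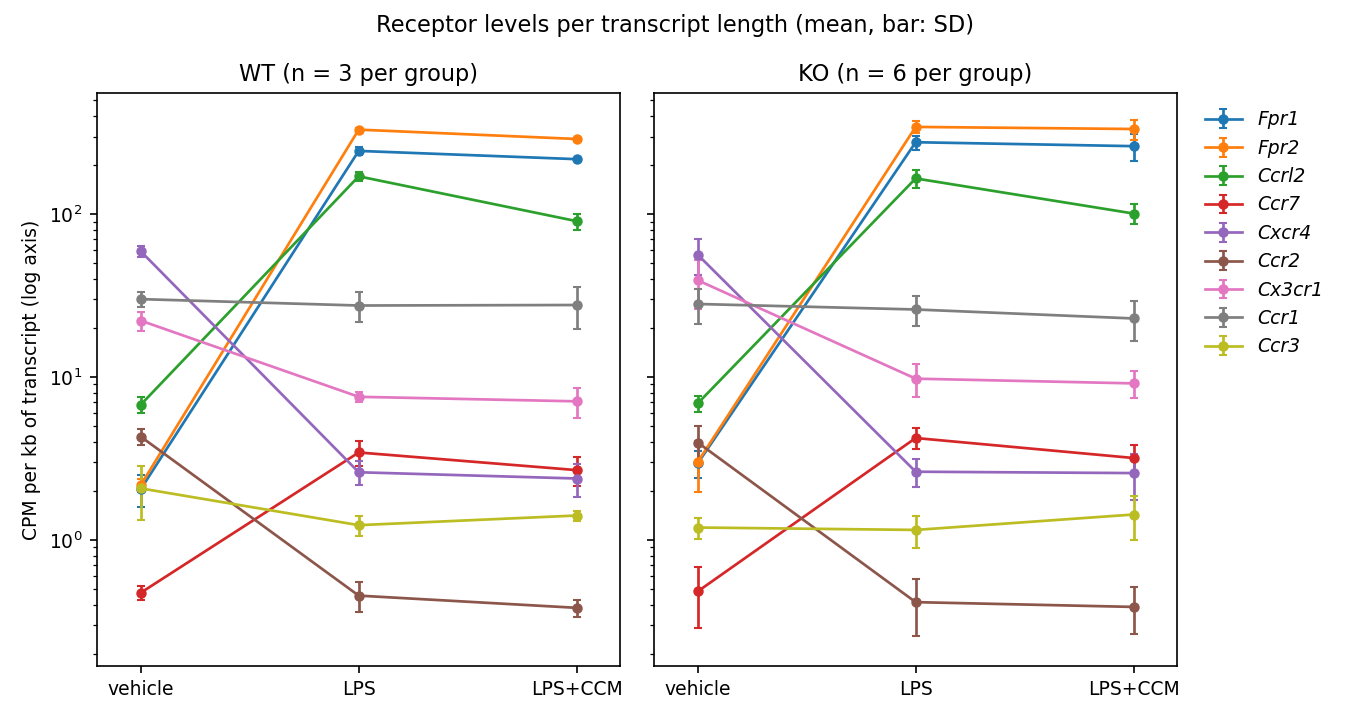
Levels of the 9 receptors per kilobase of exon, on a log axis, in each genotype with vehicle, with LPS, and with LPS and CCM. Cxcr4 is first in both genotypes with vehicle, and Fpr2, Fpr1 and Ccrl2 are the top 3 with LPS.

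LPS against vehicle moved most of the receptors. In WT cells edgeR's quasi-likelihood test with Benjamini-Hochberg adjustment called 4 receptors higher (Fpr2, Fpr1, Ccrl2 and Ccr7) and 4 lower (Cxcr4, Ccr2, Cx3cr1 and Ccr3), 8 of 9, where 63.0% of all genes tested were called, 30.6% higher and 32.4% lower. In KO cells it called the same 4 higher and 3 lower, without Ccr3, against 47.1% of all genes, 22.4% higher and 24.7% lower. The same 8 and 7 had an unadjusted p under 0.05, as did 66.1% of all genes in WT and 52.8% in KO, and DESeq2 also called 8 and 7. The groups did not overlap for any of the called receptors, a pattern seen in 32.9% (higher) and 36% (lower) of all genes in WT and in 15.7% and 14.9% in KO. The median log2 change over the 9 was -0.12 in WT and -0.07 in KO, beside -0.05 over all genes in both. Without KO replicate 6 the same 7 receptors were called in the KO, with log2 changes of 6.71 for Fpr2, 6.49 for Fpr1, 4.49 for Ccrl2, 3.15 for Ccr7, -4.57 for Cxcr4, -3.18 for Ccr2 and -2.01 for Cx3cr1.

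The formyl peptide receptors had the largest changes of the set. Fpr2 was at 2.79, 3.09 and 2.57 CPM in the WT vehicle libraries and at 439, 426 and 423 CPM with LPS. In the KO its lowest, median and highest values were 2.35, 3.53 and 5.70 CPM with vehicle and 391, 443 and 491 CPM with LPS. Every LPS library was far above every vehicle library in both genotypes. Fpr2 rose by a log2 fold change of 7.27 (SE 0.0808, edgeR adjusted p = 8.31e-12) in WT, a 154-fold change, and by 6.82 (SE 0.24, edgeR adjusted p = 1.46e-10) in KO. Its neighbour Fpr1 was at 2.02, 3.18 and 2.96 CPM with vehicle and 314, 345 and 316 CPM with LPS in WT. In the KO, Fpr1 ran from 3.13 through a median of 3.99 to 4.73 CPM with vehicle and from 314 through 368 to 404 CPM with LPS. The 2 treatments were again fully separate, with a log2 fold change of 6.91 (SE 0.127, edgeR adjusted p = 5.24e-11) in WT and 6.53 (SE 0.153, edgeR adjusted p = 1.7e-11) in KO.

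The chemerin-binding receptor Ccrl2 was at 18.7, 15.2 and 18.8 CPM in WT vehicle and at 477, 430 and 427 CPM in WT LPS libraries. In the KO the lowest, median and highest values were 15.1, 17.6 and 21.2 CPM with vehicle and 363, 444 and 487 CPM with LPS. All LPS libraries lay above all vehicle libraries. The change was 25.3-fold in WT (log2 4.66, SE 0.0964, edgeR adjusted p = 9.46e-11) and 23.9-fold in KO (log2 4.58, SE 0.129, edgeR adjusted p = 3.36e-11).

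Ccr7, the lymph node homing receptor, remained the least abundant of the 4 induced genes. It was at 0.956, 1.02 and 0.836 CPM with vehicle and at 6.97, 5.52 and 7.94 CPM with LPS in WT, and its KO medians were 1.05 and 8.30 CPM. Vehicle libraries held 11 to 47 Ccr7 reads, so the resting level is less precisely known than the induced one. The log2 fold change was 2.87 (SE 0.217, edgeR adjusted p = 1.41e-06) in WT and 3.11 (SE 0.266, edgeR adjusted p = 5.27e-07) in KO. The dendritic cell marker list summed to 19.4 to 44.2 CPM in WT vehicle and 171 to 199 CPM in WT LPS libraries, and to 22.1 to 51.1 and 153 to 217 CPM in the KO, mainly through Fscn1 and Ccl22, while the defining marker Flt3 had a median of 0.350 CPM. The part of other cells in the Ccr7 rise was not tested, and in bulk RNA fewer cells of a type and less RNA per cell cannot be told apart.

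**Figure D2:**
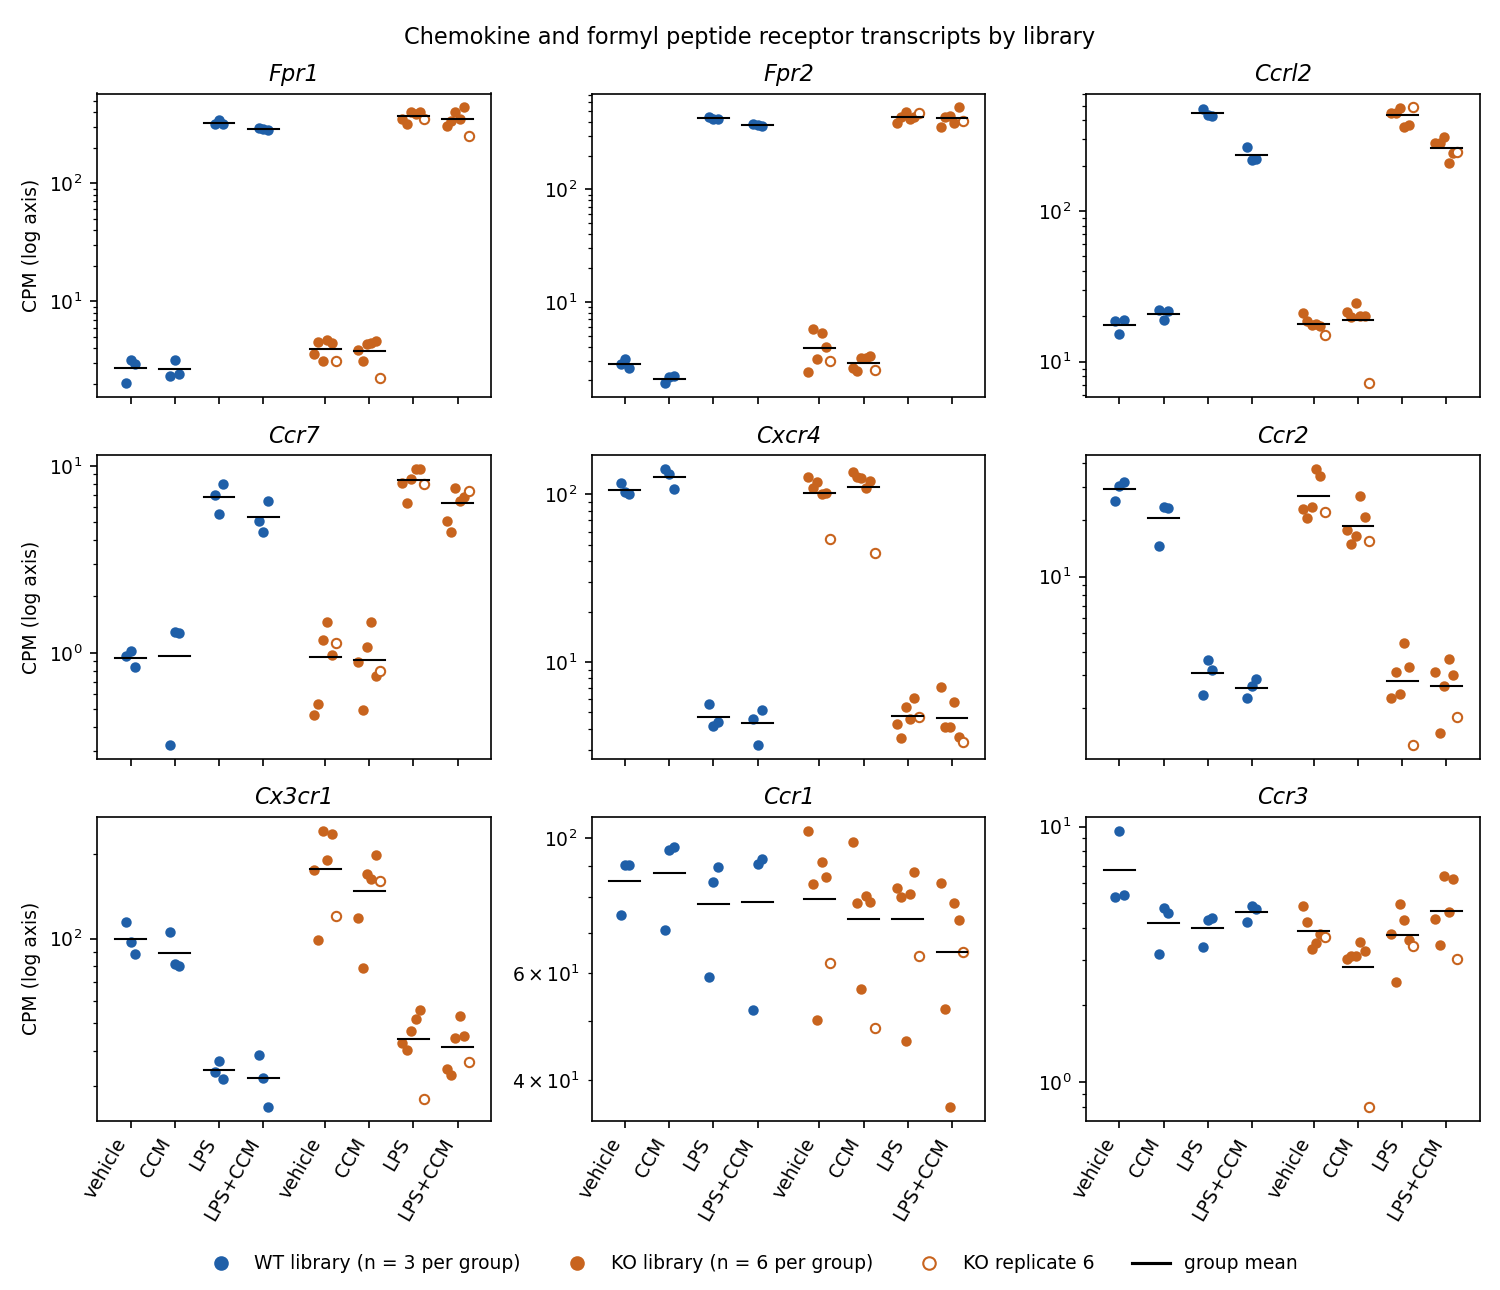
CPM of each receptor in each of the 36 libraries on a log axis, by genotype and treatment. Fpr1, Fpr2, Ccrl2 and Ccr7 are high, and Cxcr4, Ccr2 and Cx3cr1 low, in every library given LPS, with or without CCM.

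Cxcr4 showed the largest decrease. It was at 117, 103 and 101 CPM in WT vehicle and at 5.61, 4.14 and 4.37 CPM in WT LPS libraries. In the KO it ran from 54.4 through a median of 105 to 127 CPM with vehicle and from 3.51 through 4.62 to 6.09 CPM with LPS. Even the lowest vehicle library, KO replicate 6, was well above the highest LPS library. Cxcr4 fell 22.9-fold in WT (log2 -4.52, SE 0.112, edgeR adjusted p = 3.37e-10) and 21.6-fold in KO (log2 -4.43, SE 0.217, edgeR adjusted p = 2.47e-09).

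Ccr2, the monocyte receptor for CCL2, was at 25.3, 30.2 and 31.6 CPM with vehicle and 2.36, 3.63 and 3.21 CPM with LPS in WT. Its KO range was 20.5 to 37.2 CPM (median 23.2) with vehicle and 1.28 to 4.44 CPM (median 2.75) with LPS. The groups were separate in both genotypes. Ccr2 fell 9.3-fold in WT (log2 -3.22, SE 0.155, edgeR adjusted p = 4.41e-08) and 9.58-fold in KO (log2 -3.26, SE 0.263, edgeR adjusted p = 2.98e-07). The list of other monocyte markers was higher with LPS, at 283 to 413 CPM against 76.9 to 86.8 CPM in WT and 284 to 1075 CPM against 65.8 to 122 CPM in KO (284 to 532 CPM with LPS without KO replicate 6), with Hp, an acute-phase gene, as the most abundant marker at up to 965 CPM.

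Cx3cr1 was at 115, 97.2 and 87.9 CPM with vehicle and 33.5, 36.9 and 31.8 CPM with LPS in WT. In the KO it spread more widely with vehicle, from 99.3 through 182 to 242 CPM, and lay between 27.0 and 55.6 CPM (median 44.8) with LPS. No LPS library reached a vehicle library. Cx3cr1 fell 2.92-fold in WT (log2 -1.55, SE 0.0993, edgeR adjusted p = 4.05e-07) and 4.06-fold in KO (log2 -2.02, SE 0.235, edgeR adjusted p = 9.78e-06).

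The other two receptors differed from this pattern. Ccr3 was at 5.29, 9.63 and 5.41 CPM with vehicle and 3.37, 4.32 and 4.37 CPM with LPS in WT, where it fell by 0.73 on the log2 scale (SE 0.25, edgeR adjusted p = 0.0271). WT vehicle replicate 2 was the high value, and without it the log2 change was -0.39 (edgeR adjusted p = 0.122). The call was also lost without WT LPS replicate 1 (log2 -0.62, edgeR adjusted p = 0.0903) or 2 (log2 -0.78, edgeR adjusted p = 0.0538). In KO the medians were 3.75 CPM with vehicle and 3.69 CPM with LPS, with overlapping groups and a log2 change of -0.07 (95% CI -0.45 to 0.32). The eosinophil marker list was at 67.5 to 75.6 CPM with vehicle and 42.3 to 49.3 CPM with LPS in WT. In KO it was at 66.8 to 80.0 and 41.7 to 62.6 CPM. The most abundant members of this list were Siglecf (median 29.8 CPM over all libraries), Prg2 (9.67 CPM) and Ear2 (6.73 CPM). Its defining marker Epx did not exceed 1.16 CPM, and the part of eosinophils in the Ccr3 values was not tested. Ccr1, which binds several of the chemokines macrophages secrete, was at 74.8, 90.5 and 90.4 CPM with vehicle and 59.1, 84.8 and 89.7 CPM with LPS in WT, and the KO medians were 85.3 and 80.5 CPM. The groups overlapped, with a log2 change of -0.12 (95% CI -0.44 to 0.20) in WT and -0.12 (95% CI -0.53 to 0.29) in KO. Scaling by total counts alone moved the median log2 change of all genes in WT from -0.05 to -0.47 and that of Ccr1 to -0.54 (edgeR adjusted p = 0.00755), so Ccr1 stayed close to the median gene under both scalings.

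**Figure D3:**
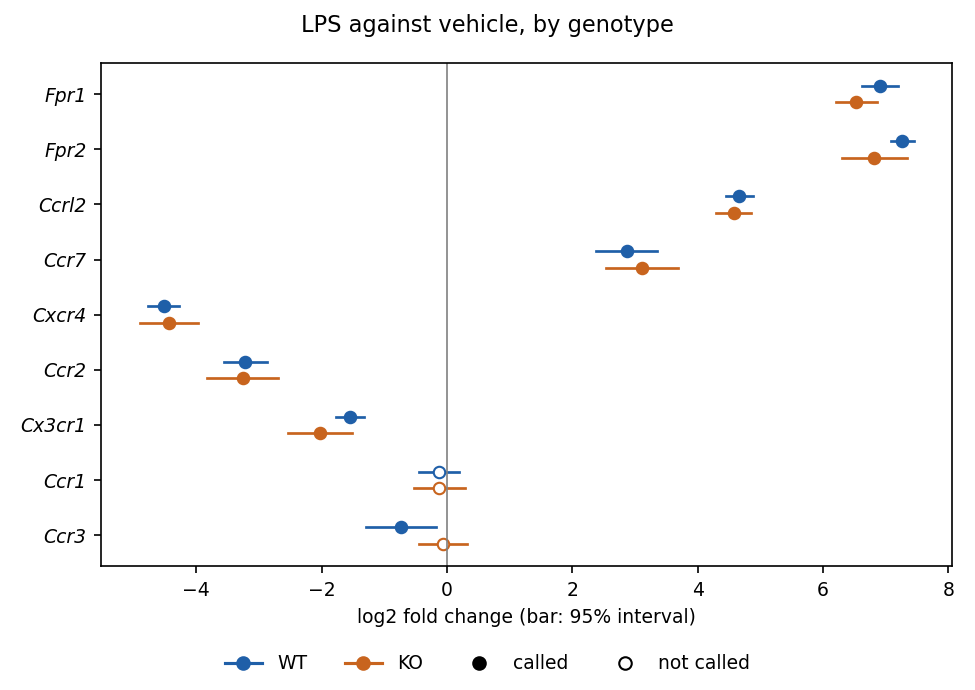
Log2 fold change with LPS against vehicle in WT and KO cells for each receptor, with 95% confidence intervals. Fpr2, Fpr1, Ccrl2 and Ccr7 lie above 0 and Cxcr4, Ccr2 and Cx3cr1 below 0 in both genotypes, and Ccr1 spans 0 in both.

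The effect of CCM during LPS stimulation was then read from LPS and CCM against LPS alone, a comparison that shares its LPS libraries with the one above. In WT cells edgeR called 3 of 9 receptors lower (Ccrl2, Fpr2 and Fpr1) and 0 higher, where 11.9% of all genes were called, 7.78% lower and 4.15% higher. DESeq2 also called 3, and the same 3 were the ones without overlap between groups, a pattern seen in 15.3% of all genes downward and 15.2% upward. In KO cells edgeR called 0 of 9, where 0.112% of all genes were called, 0.105% lower and 0.00747% higher. In the KO 2 receptors, Ccrl2 and Ccr7, had an unadjusted p under 0.05 (7.99% of all genes did), DESeq2 called 1, Ccrl2, and Ccrl2 alone did not overlap between groups (0.725% of all genes on the lower side and 0.583% on the higher). The median log2 change over the 9 was -0.17 in WT and -0.11 in KO, beside 0.01 and 0.00 over all genes.

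Ccrl2 showed the largest decrease. WT libraries with LPS and CCM held 266, 218 and 222 CPM, against the 477, 430 and 427 CPM given above for LPS alone. In the KO the lowest, median and highest values were 209, 265 and 310 CPM with both and 363, 444 and 487 CPM with LPS alone. The highest library with CCM was below the lowest without it in both genotypes. Ccrl2 fell 1.89-fold in WT (log2 -0.92, SE 0.078, 95% CI -1.09 to -0.74, edgeR adjusted p = 7.37e-05). In the KO the log2 change was -0.74 (SE 0.13, 95% CI -1.02 to -0.46), lower in 6 of 6 same-numbered pairs, and missed the threshold (edgeR adjusted p = 0.0514, DESeq2 adjusted p = 4.23e-05). Without KO replicate 6 it was -0.67 and passed (edgeR adjusted p = 0.0245). As a share of the mean LPS-induced increase, the amount missing with CCM was 49.0% ± 6.29 (SD, n = 3) in WT and 40.9% ± 8.77 (n = 6) in KO. These SDs cover the libraries with both agents and leave out the spread of the LPS and vehicle libraries.

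**Figure D4:**
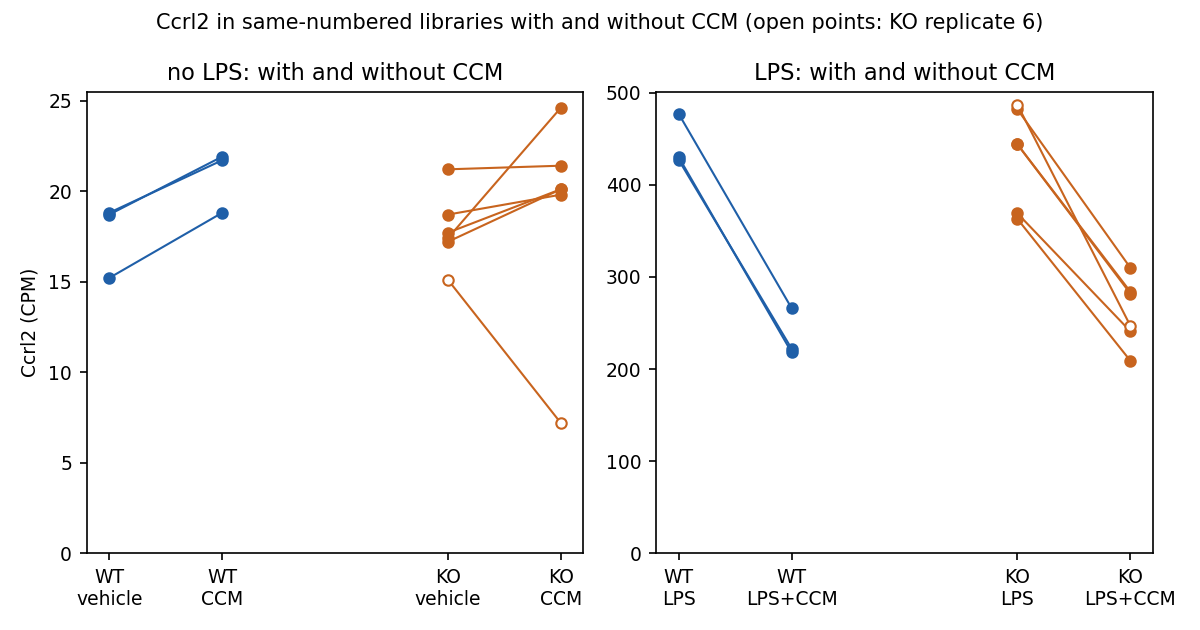
Ccrl2 CPM with and without CCM, in cells not given LPS and in cells given LPS, same-numbered replicates joined by lines, in WT and KO. With LPS all 9 lines go down, from 363 to 487 CPM to 209 to 310 CPM. Without LPS 3 of 3 WT lines and 5 of 6 KO lines go up.

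The formyl peptide receptors changed much less with CCM. In WT, Fpr2 was at 383, 374 and 369 CPM with LPS and CCM, below all 3 LPS libraries, and fell by 0.19 on the log2 scale (SE 0.041, edgeR adjusted p = 0.0131). WT Fpr1 was at 291, 289 and 284 CPM, also below its LPS libraries, and fell by 0.17 (SE 0.0476, edgeR adjusted p = 0.0407). The missing share of the LPS-induced increase was 12.6% ± 1.56 for Fpr2 and 11.5% ± 1.17 for Fpr1 in WT. In KO it was 3.09% ± 14.1 and 5.36% ± 18.2. The SDs again leave out the spread of the LPS and vehicle libraries. In KO libraries with both agents, Fpr2 ran from 363 through 425 to 539 CPM and Fpr1 from 252 through 344 to 439 CPM, overlapping the LPS libraries, with log2 changes of -0.06 (95% CI -0.32 to 0.19) and -0.10 (95% CI -0.39 to 0.20). The call of Fpr1 in WT was lost without any one of WT LPS replicates 2 and 3 and WT LPS and CCM replicates 1, 2 and 3 (edgeR adjusted p = 0.0571 to 0.169, log2 -0.19 to -0.13), and that of Fpr2 without WT LPS and CCM replicate 2 (log2 -0.19, edgeR adjusted p = 0.0535). Without WT LPS and CCM replicate 2, Ccrl2 was the 1 receptor called. Scaling by total counts alone, which moved the median log2 change of all genes from 0.01 to 0.09, gave -0.11 for Fpr2 (edgeR adjusted p = 0.0836) and -0.09 for Fpr1 (edgeR adjusted p = 0.21), and in one fit to all 36 libraries both had edgeR adjusted p = 1.

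Ccr7 was at 5.06, 4.4 and 6.46 CPM with LPS and CCM in WT, below its same-numbered LPS library in 3 of 3 pairs but overlapping as groups (log2 -0.36, 95% CI -0.79 to 0.07). In KO it ran from 4.4 through 6.64 to 7.65 CPM and was lower in 6 of 6 pairs (log2 -0.42, edgeR adjusted p = 0.513). The dendritic marker list was at 120 to 143 CPM with both agents against 171 to 199 CPM with LPS in WT, and at 118 to 177 against 153 to 217 CPM in KO, and its part in these values was not tested. Among the receptors that LPS lowered, Cxcr4 was at 4.58, 3.19 and 5.16 CPM, Ccr2 at 2.26, 2.62 and 2.86 CPM and Cx3cr1 at 38.7, 31.9 and 25.3 CPM with both agents in WT. These overlapped the LPS libraries, as did their KO values, and none was called. Ccr1 (52.3, 90.7 and 92.4 CPM) and Ccr3 (4.23, 4.87 and 4.74 CPM) overlapped likewise.

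CCM in resting cells, against the vehicle libraries already used for LPS, changed no receptor by edgeR's adjusted p: 0 of 9 in WT, where 0.0570% of all genes were called (0.0499% higher and 0.00713% lower), and 0 of 9 in KO, where 0% were. At an unadjusted p under 0.05 there were 4 in WT (10% of all genes) and 1 in KO (2.41%). DESeq2 called 1 in WT, Ccr2 (adjusted p = 0.0474), and 0 in KO. The 4 in WT were Ccr2, Ccr3 and Fpr2, on the lower side, and Cxcr4, on the higher. Ccr2, Ccr3, Fpr2 and Ccrl2 did not overlap between groups, a pattern seen in 9.85% of all genes upward and 6.5% downward. None of the 9 was free of overlap in KO (0.116% of all genes upward and 0.261% downward).

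Ccr2 was at 14.5, 23.3 and 23.2 CPM with CCM in WT, all below the lowest vehicle library at 25.3 CPM (log2 -0.53, SE 0.171, edgeR adjusted p = 0.346). In KO it ran from 14.9 through 17 to 26.7 CPM and overlapped vehicle, but was lower in 6 of 6 same-numbered pairs, with a mean log2 ratio of -0.51 ± 0.11 (SD, n = 6; edgeR adjusted p = 1, and 0.257 without KO replicate 6). In the KO, where libraries with the same number deviated together, a fit blocked on replicate number called Ccr2 lower (log2 -0.51, edgeR adjusted p = 0.00133). The blocked fit also called Ccr2 lower in WT, where same-numbered libraries did not all deviate together, as did DESeq2 and a fit without the count filter. Over the monocyte marker list, WT libraries had 54.2 to 69.3 CPM with CCM against 76.9 to 86.8 CPM with vehicle, and KO libraries 49.8 to 98.3 against 65.8 to 122 CPM, and its part in the Ccr2 values was not tested. Cxcr4 was at 142, 133 and 108 CPM with CCM in WT, overlapping the vehicle range of 101 to 117 CPM (log2 0.24, edgeR adjusted p = 0.459). Fpr2 was at 1.88, 2.13 and 2.18 CPM (log2 -0.46) and Ccr3 at 3.17, 4.81 and 4.57 CPM (log2 -0.70, and -0.37 without WT vehicle replicate 2), each from counts of 41 to 111 reads. Ccrl2 was at 21.9, 18.8 and 21.7 CPM with CCM alone in WT, just above the vehicle libraries, with a log2 change of 0.23 (95% CI -0.02 to 0.47). KO Ccrl2 had a median of 20.1 CPM with CCM, and replicate 6 alone lay far below, at 7.19 CPM.

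For Ccrl2 the response to CCM depended on LPS in WT. The interaction of LPS and CCM was -1.15 on the log2 scale (SE 0.136, 95% CI -1.45 to -0.86, edgeR adjusted p = 0.0024), the only call among the 9 receptors in WT, where 2.09% of all genes were called (1.62% lower). Ccr3 had an unadjusted p under 0.05 in the same test (log2 0.88, and 0.55 without WT vehicle replicate 2), as did 14% of all genes, and DESeq2 called 1. In the KO edgeR called 0 of 9 (0.00685% of all genes) and DESeq2 0, with Ccrl2 at -0.80 (SE 0.255, edgeR adjusted p = 1) and Ccr3 at 0.78 past an unadjusted p of 0.05 (3.67% of all genes). Without KO replicate 6 the KO value for Ccrl2 was -0.87 and passed (edgeR adjusted p = 0.0249).

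**Figure D5:**
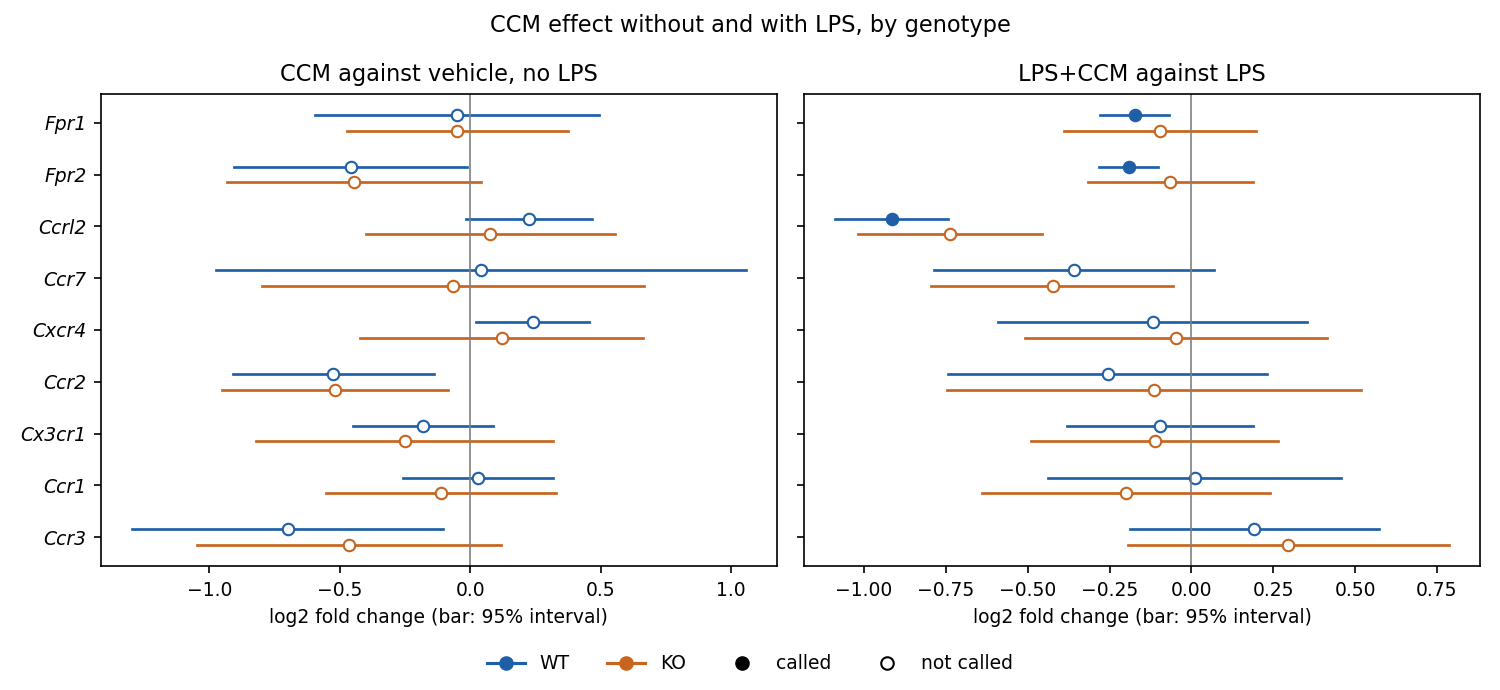
Log2 fold change with CCM in each genotype, with and without LPS, for the 9 receptors, with 95% confidence intervals. Ccrl2 with LPS is the value farthest below 0 in both genotypes, at -0.92 in WT and -0.74 in KO.

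The genotypes were compared at rest and with LPS. With vehicle edgeR called 0 of 9 receptors (0 by DESeq2), and 3 had an unadjusted p under 0.05, against 0.820% of all genes. These were Cx3cr1, at 99.3 to 242 CPM in KO and 87.9 to 115 CPM in WT (log2 0.84, SE 0.285), Ccr3, at 3.31 to 4.87 and 5.29 to 9.63 CPM (log2 -0.78, SE 0.219), and Fpr1, at 3.13 to 4.73 and 2.02 to 3.18 CPM (log2 0.54, SE 0.223), each with edgeR adjusted p = 1. Without KO replicate 6 the Cx3cr1 difference was 0.92, and without WT vehicle replicate 2 that of Ccr3 was -0.44. Ccr3 was the receptor without overlap, as were 0.633% of all genes on the lower side and 0.285% on the higher. With LPS edgeR called 0 of 9, none had an unadjusted p under 0.05 (0.761% of all genes did), and DESeq2 called 0. All 9 overlapped between genotypes, where 0.594% of all genes were higher and 0.536% lower without overlap. Log2 differences ran from -0.13 for Ccr2 to 0.37 for Cx3cr1. Neither interaction of genotype gave a call by edgeR or DESeq2, with 0% of all genes called in each. For the response to LPS, Ccr3 (log2 0.70, and 0.35 without WT vehicle replicate 2) had an unadjusted p under 0.05 (0.742% of all genes). For the response to CCM under LPS none did (0.495% of all genes), and the Ccrl2 difference between genotypes was 0.20 (95% CI -0.21 to 0.60), so these data do not separate the genotypes on the Ccrl2 decrease, nor do they show it equal.

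The surrounding pathway was read from lists of related genes. With LPS in WT, where 63.0% of all genes were called, 2 of the 6 other chemokine receptors tested rose (Xcr1, log2 2.95 [edgeR adjusted p = 2.62e-05], and Ccr9, 2.59) and 2 fell (Cxcr2, -2.07, and Cxcr3, -2.0), with a median log2 change of 0.10. Of 10 other chemoattractant receptors, 4 rose and 5 fell (median -0.16). The chemerin receptor Cmklr1 rose from 38.0 ± 7.77 to 165 ± 6.35 CPM, and Gpr183, which senses oxysterols, fell by 4.39 on the log2 scale. Fpr3, which shares sequence with Fpr2, had 1 read summed over the 3 WT vehicle libraries and 36 to 151 reads in each with LPS. Of 17 ligands of the 9 receptors, 14 rose and 2 fell (median 3.73), led by the CCR1 and CCR3 ligand Ccl5 (log2 10.52) and Saa3 (10.29), of the serum amyloid A family. Of 26 signaling and desensitization genes, 16 rose and 8 fell (median 0.60), among them Jak2 (3.59), the phosphoinositide 3-kinase gamma subunits Pik3r6 (2.43) and Pik3r5 (1.86), and Plcb2 (-1.77). In KO cells, where 47.1% of all genes were called, the counts were 2 up and 2 down of 6, 3 and 5 of 9, 11 and 0 of 15, and 12 and 8 of 26.

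With LPS and CCM against LPS in WT, where 11.9% of all genes were called, 7 of 16 ligands fell and 0 rose (median log2 change -0.26). The CCR2 ligands Ccl12 (-1.05), Ccl7 (-0.93) and Ccl2 (-0.83) and the CCR1 ligand Ccl3 (-0.85) had the largest changes. Ccl2 was at 292 ± 41.7 CPM with LPS and 164 ± 20.0 CPM with both. The anaphylatoxin receptors C3ar1 (-0.31) and C5ar1 (-0.23) fell, 2 of 11 other chemoattractant receptors. Before scaling, Fpr3 reads summed to 394 with both agents and 295 with LPS in WT, and to 344 and 197 in KO. Per library they overlapped, at 47 to 222 and 36 to 151 reads in WT and 10 to 122 and 2 to 52 in KO. Whether Fpr3 reads affected the Fpr2 counts was not tested. Of 6 other chemokine receptors edgeR called 0 and DESeq2 0, and 1 had an unadjusted p under 0.05, as did 25.7% of all genes. In the signaling list 3 rose and 2 fell of 26, with Arrb1, a beta-arrestin that desensitizes receptors, at 0.42 and Jak2 at -0.23. In KO cells edgeR called 0 in each of the 4 lists, with medians between -0.31 and -0.09. Of the ligands there, 4 of 17 had an unadjusted p under 0.05, against 7.99% of all genes, and DESeq2 called 1, and of the other chemoattractant receptors 2 of 11 and 1. The signaling list had 2 of 26 and 0, and the other chemokine receptors 0 of 6 and 0. With CCM at rest in WT edgeR called 0 in each list, with 2 of 6 other chemokine receptors, 2 of 10 other chemoattractant receptors, 3 of 13 ligands and 5 of 26 signaling genes at an unadjusted p under 0.05, against 10% of all genes, and 0, 1, 2 and 1 called by DESeq2.

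The genes whose mean pattern over the 8 groups was closest to each receptor were found by the root mean square (RMS) difference of centred log2 CPM among 11374 genes, as a description. Rnf150 was closest to Cxcr4 (RMS 0.04) and Slc38a1 to Ccr1 (0.03). Traf1, an adaptor of TNF receptors, was closest to Fpr1 (0.12), and AW112010 to Fpr2 (0.20). Slfn8 and Xkr8 were closest to Ccrl2 (both 0.14). Tap2, a peptide transporter of antigen presentation, was closest to Ccr7 (0.09), Etl4 to Ccr2 (0.10), Hal to Cx3cr1 (0.14) and Cc2d2a to Ccr3 (0.19). Among the 9 themselves, Fpr1 and Fpr2 were the nearest pair (0.29), followed by Ccr1 and Ccr3 (0.32).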

How the data were processed

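Poly(A) RNA of 36 BMDM libraries was sequenced. Per the submitters' processing notes and the study's methods, the authors trimmed reads with fastp, aligned them to mm10 with HISAT2 2.0.5 and deposited raw counts per gene from featureCounts 1.5.0-p3. The strand setting and annotation release are not given in the sources used here. Gene coordinates came from the deposited table, and 53499 of 54409 genes found in GENCODE M21 had identical coordinates there, including all 9 receptors. Groups came from the sample labels.

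Counts were tested in R 4.3.3 with edgeR 4.0.16 (filterByExpr, TMM, quasi-likelihood F test, no replicate block), fitted on all genes of the libraries compared, with Benjamini-Hochberg adjustment over all genes and a threshold of 0.05. DESeq2 1.42.0 was an alternative, beside other scalings, no filter, one fit to all 36 libraries, a replicate block and leaving out each replicate. Interactions were fitted on the 12 WT libraries, the 24 KO libraries or the 18 libraries of both genotypes concerned. The scripts were tested on simulated data. Log2 CPM used a prior count of 2. No pair of replicates agreed within sampling noise.

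The 9 receptors and the gene lists were chosen with earlier results of these data known. Every receptor is named. From each list the text draws on up to 4 called genes with the largest absolute log2 change and a mean of at least 1 CPM, and the nearest genes by pattern exclude predicted genes and pseudogenes. Samples with the same replicate number in the labels deviated together, with every pair's correlation over 0.1, for LPS in KO (0.299 to 0.829), LPS and CCM in WT (0.151 to 0.36) and CCM in KO (0.338 to 0.842). Between libraries of different numbers the median correlation was 0.173, -0.132 and 0.223 in the same order. The KO values include KO replicate 6.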

Additional observations from a re-analysis of the deposited data

Results flagged for a closer look

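KO replicate 6 lay far below the other 5 libraries of its group in 4 of the 36 receptor and KO group combinations examined with Dixon's ratio on log2 CPM. With CCM alone, Ccr3 was at 0.799 CPM (next lowest 3.04) and Ccrl2 at 7.19 CPM (next lowest 19.8). Cxcr4 was at 54.4 CPM with vehicle (next lowest 101) and at 44.8 CPM with CCM (next lowest 109). Chance alone marks about 1 in 20 such groups, and the 4 values come from 1 replicate whose libraries stand apart genome-wide. Without it, KO Ccrl2 was at 18.4 ± 1.66 CPM with vehicle and 21.2 ± 1.99 CPM with CCM, and KO Cxcr4 at 111 ± 11.3 and 124 ± 9.80 CPM (SD, n = 5).

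The effect of CCM on Ccrl2 in WT differed between cells with and without LPS by the interaction test, at -1.15 on the log2 scale. CCM alone came with a change of 0.23 and CCM under LPS with one of -0.92.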

How the results depend on the processing

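LPS against vehicle called 7 to 8 receptors in WT when one library was left out, 7 in KO in each such refit, and 9 in WT with total counts alone. Ccr3 lost its WT call in the fit to all 36 libraries (edgeR adjusted p = 0.0713) and without WT LPS replicate 1 (0.0903) or 2 (0.0538) or WT vehicle replicate 2 (0.122). For LPS and CCM against LPS in WT the count was 1 with total counts alone, 0 in the fit to all 36 libraries and 1 to 3 with one library left out, the lowest without WT LPS and CCM replicate 2. Ccrl2 lost its WT call only in the fit to all 36 libraries (0.119), in which the interaction in WT also gave 0. For LPS and CCM in KO, DESeq2, the fit to all 36 libraries and the replicate block each gave 1, and leaving out one replicate number gave 0 to 1, as it did for the interaction in KO, with 1 only without KO replicate 6. For CCM in WT, DESeq2 and no filter each gave 1. Libraries of one number did not all deviate together for LPS in WT, LPS and CCM in KO or CCM in WT (lowest correlations 0.0473, -0.1 and 0.0512), and 3 of 3, 4 of 6 and 3 of 3 treated libraries correlated best with their own number. With the replicate block, CCM gave 1 in WT (Ccr2, edgeR adjusted p = 0.0174) and 1 in KO (Ccr2), LPS and CCM in KO gave Ccrl2 (0.000773), and no other call changed. The cause of these changes was not tested.

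Small values turned sign. Cxcr4 under LPS and CCM in KO was 0.008 with total counts alone. With one replicate left out, log2 values ran from -0.231 to 0.044 for Ccr1 and LPS in WT, -0.205 to 0.058 for Ccr3 and LPS in KO, and, for CCM under LPS, -0.147 to 0.225 for Ccr1, -0.273 to 0.057 for Cxcr4 and -0.256 to 0.048 for Cx3cr1 in WT, and -0.225 to 0.03 for Ccr2 and -0.237 to 0.105 for Cxcr4 in KO. Of 59 further receptor values in the remaining comparisons, 27 turned sign under some alternative and 0 were called. Some values rest on few reads, with 7 to 47 per library for Ccr7 without LPS and 15 to 96 for Ccr2 with LPS.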
